A study of Mus musculus with 7 samples.

Results

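A set of 8 genes of cholesterol synthesis and its feedback control were followed in splenic B cells of miR-155 transgenic and wild-type mice: Hmgcs1, Idi1, Fdft1, Sqle, Lss, Cyp51, Dhcr7 and Insig1. They were chosen by name, and each was read from the probe sets that the platform annotation assigns to that gene alone. This gave 20 probe sets for the 8 genes, among 34945 probe sets with 1 gene. Of the 20, 16 were above a log2 level of 4 on at least 3 of the 7 arrays and were tested, and all 8 genes had at least 1 of these. Despite the wider name of the pathway, no lipoprotein receptor is among the 8, and genes of uptake are taken up with the rest of the pathway. The wild-type group was 4 FVB mice (WT), and the transgenic group was 3 FVB mice that carry Eu-miR-155 (TG), a transgene under the Eµ heavy chain enhancer, which is active in B lineage cells. Spleen B cells were prepared with a magnetic B-cell isolation kit in both groups, and each array is taken as 1 mouse because the series' design counts mice. Ages are not given in the labels, and a single transgenic line is named.

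Cells make cholesterol from acetyl-CoA through the mevalonate pathway, in which HMG-CoA synthase (Hmgcs1) acts early, isopentenyl diphosphate isomerase (Idi1) supplies the isoprenoid units, squalene synthase (Fdft1) commits them to sterols, and squalene epoxidase (Sqle) and lanosterol synthase (Lss) form the sterol ring. Lanosterol is then demethylated by Cyp51, and Dhcr7 carries out a last reduction to cholesterol. Transcription of most of these genes is known to be driven by SREBP-2, the product of Srebf2, which the escort protein SCAP carries from the endoplasmic reticulum when sterols are scarce. INSIG1 holds SCAP back when sterols are plentiful, and Insig1 is itself a target of SREBP. Lymphocytes raise this pathway when they grow and divide.

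The small RNA that the transgene encodes is shown first, because the groups are labelled by it; its level was not measured here. A probe set of its host transcript, Mir155hg, was at 6.42, 5.60, 5.12 and 5.02 in wild type and at 5.41, 5.33 and 6.04 in transgenic arrays, which overlapped, and the sources used here do not say whether the transgene contains the sequence it reads. The mature 5p strand of mouse miR-155 in RefSeq, build GRCm38.p6, lies at chr16:84714143-84714165 on the + strand, and its seed, bases 2 to 8, is in capitals.

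mmu-miR-155-5p: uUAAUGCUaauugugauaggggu

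RefSeq promoter windows of the same build, 250 bases before to 50 after a start site, were matched for 6 of the 8 genes, with 8 windows in all because Dhcr7 has 3. Fdft1 and Sqle had no entry in this table. Each window was searched on both strands for TCACCCCA, a core of the sterol response element that SREBP binds, for its looser form TCACNCCA, of which every TCACCCCA is also a match, for the NF-Y box CCAAT and for the Sp1 box GGGCGG. NF-Y and Sp1 are known partners of SREBP at sterol genes. TCACCCCA was in the window of 1 member, Hmgcs1, and in that of Srebf2, whereas 1.56% of all 32851 windows held it; TCACNCCA was in no further member and in 4.36% of all windows. CCAAT was in 6 of the 8 member windows and GGGCGG in 7 of 8, against 37.4% and 35.7% of all windows. A match describes letters and is not a measured binding site. Printed here are Hmgcs1 and Srebf2, which share the core, and Cyp51 and Insig1, a synthesis gene and a feedback gene without it; capitals mark every match on either strand. Hmgcs1 is at chr13:119690101-119690400 (+), Srebf2 at chr15:82147019-82147318 (+), Cyp51 at chr5:4104648-4104947 (-) and Insig1 at chr5:28071162-28071461 (+).

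Hmgcs1: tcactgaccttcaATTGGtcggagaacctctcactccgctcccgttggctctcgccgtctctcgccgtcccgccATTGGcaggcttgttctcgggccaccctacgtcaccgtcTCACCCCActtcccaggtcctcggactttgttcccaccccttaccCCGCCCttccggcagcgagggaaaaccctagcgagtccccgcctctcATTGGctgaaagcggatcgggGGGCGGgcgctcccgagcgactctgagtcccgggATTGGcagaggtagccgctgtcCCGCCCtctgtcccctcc

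Srebf2: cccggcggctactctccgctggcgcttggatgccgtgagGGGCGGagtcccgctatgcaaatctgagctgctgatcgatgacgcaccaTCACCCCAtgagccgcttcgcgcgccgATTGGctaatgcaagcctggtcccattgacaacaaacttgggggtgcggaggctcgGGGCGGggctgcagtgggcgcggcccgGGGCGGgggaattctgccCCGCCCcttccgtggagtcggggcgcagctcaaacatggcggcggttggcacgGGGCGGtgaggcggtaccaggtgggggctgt

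Cyp51: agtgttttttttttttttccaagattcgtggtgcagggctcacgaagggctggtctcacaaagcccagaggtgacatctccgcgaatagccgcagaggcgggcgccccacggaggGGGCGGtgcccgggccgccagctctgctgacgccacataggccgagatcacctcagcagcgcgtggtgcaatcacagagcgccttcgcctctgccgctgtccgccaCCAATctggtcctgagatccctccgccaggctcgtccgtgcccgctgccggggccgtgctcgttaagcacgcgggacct

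Insig1: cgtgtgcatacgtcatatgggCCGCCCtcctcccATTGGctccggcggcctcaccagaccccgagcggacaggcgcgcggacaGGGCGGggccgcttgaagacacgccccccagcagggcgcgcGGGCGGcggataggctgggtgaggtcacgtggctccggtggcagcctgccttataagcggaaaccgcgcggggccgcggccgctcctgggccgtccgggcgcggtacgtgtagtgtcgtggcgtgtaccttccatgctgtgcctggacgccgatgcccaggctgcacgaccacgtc

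In the Hmgcs1 window the core began 137 bases before the start site, between CCAAT matches at 176 and 45 bases before it. In the Srebf2 window it began 162 bases before the start, with a CCAAT match at 135. The Hmgcs1 window held further CCAAT matches 237 bases before the start site and at base 11 after it. With matches on both sides of the core, a core followed by a CCAAT box was likely to be found there. How often other windows hold that order was not counted, so no shared arrangement is read from it.

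Values are the authors' GCRMA levels on a log2 scale, on which a difference of 1 is a doubling, and a level at or under 4 is treated as background. The arrays held 45.9% to 47.9% of probe sets above 4, and the number of arrays limits the precision. The labelled cell type was checked with 10 mature B cell genes, which averaged between 13.60 and 13.72 in wild type and between 13.12 and 13.44 in transgenic arrays, and 2 of the 10 were lower in the limma test. Genes of other cells were compared by the mean level of each whole list, because a gene high on the 3 transgenic arrays alone passes the filter through that group. The 10 granulocyte genes averaged 2.71 to 3.54 in wild type and 7.57 to 8.81 in transgenic arrays, and 3 of the 6 tested were above 4 on transgenic arrays only. The 8 erythroid genes averaged 3.34 to 3.38 and 4.58 to 6.20, the 7 natural killer cell genes 2.99 to 3.08 and 5.43 to 7.61, and the 7 blood progenitor genes 4.14 to 4.57 and 6.13 to 7.71. The 8 macrophage and monocyte genes averaged 3.89 to 5.26 and 5.28 to 7.21. T cell genes stood apart on 1 array: the 8 averaged 8.51 on transgenic replicate 3 and 3.35 to 3.83 on the other 6 arrays. Of 17 cell cycle genes 15 were higher by limma, 1 of the 17 being above 4 on transgenic arrays only, with a mean level of 6.53 to 7.52 in wild type and 8.64 to 9.97 in transgenic arrays. These are bulk isolates, in which fewer cells of a type and less RNA per cell cannot be told apart. Xist (1436936_s_at) read 2.22 for wild-type replicate 3, 2.81 for wild-type replicate 4 and 13.61 to 13.93 for the other 5 arrays, and the Y-linked Eif2s3y (1417210_at) was at 9.85 and 11.10 on those replicates and at 2.17 elsewhere, so these 2 were male and the others female. Over the 5 female arrays alone the median difference of the 8 genes was -0.29, 0 of the 8 passed by limma with 0 at an unadjusted p under 0.05, and 12 of all genes passed.

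No member of the sterol set differed between the genotypes in the test over all probe sets, although most stood a little lower in the transgenic arrays. The brightest probe set of each gene gave differences, transgenic minus wild type, from -0.37 for Lss to 0.13 for Fdft1, with a median of -0.22, where the median of all 9517 genes was 0.00222. By limma with Benjamini-Hochberg adjustment, 0 of the 8 passed an adjusted p under 0.05, against 10.7% of all genes (8.11% higher and 2.56% lower). At an unadjusted p under 0.05 there were 2 of 8, Hmgcs1 and Cyp51, against 30.9% of all genes. The difference was negative for 7 of the 8 genes, against 49.3% of all genes. Counted by probe set, 0 of 16 passed, against 9.28% of all probe sets, and 15 of the 16 had a negative difference. Probe sets of the same gene are not independent, so the 16 do not count as separate evidence. The smallest adjusted p among the 16 was 0.108. The groups did not overlap for 1 of the 8 genes, Sqle, against 29.9% of all genes. Counts of 0 and 1 out of 8 are too small to be set apart from these shares. The median was -0.11 without wild-type replicate 2, the array with the highest levels.

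**Figure D1:**
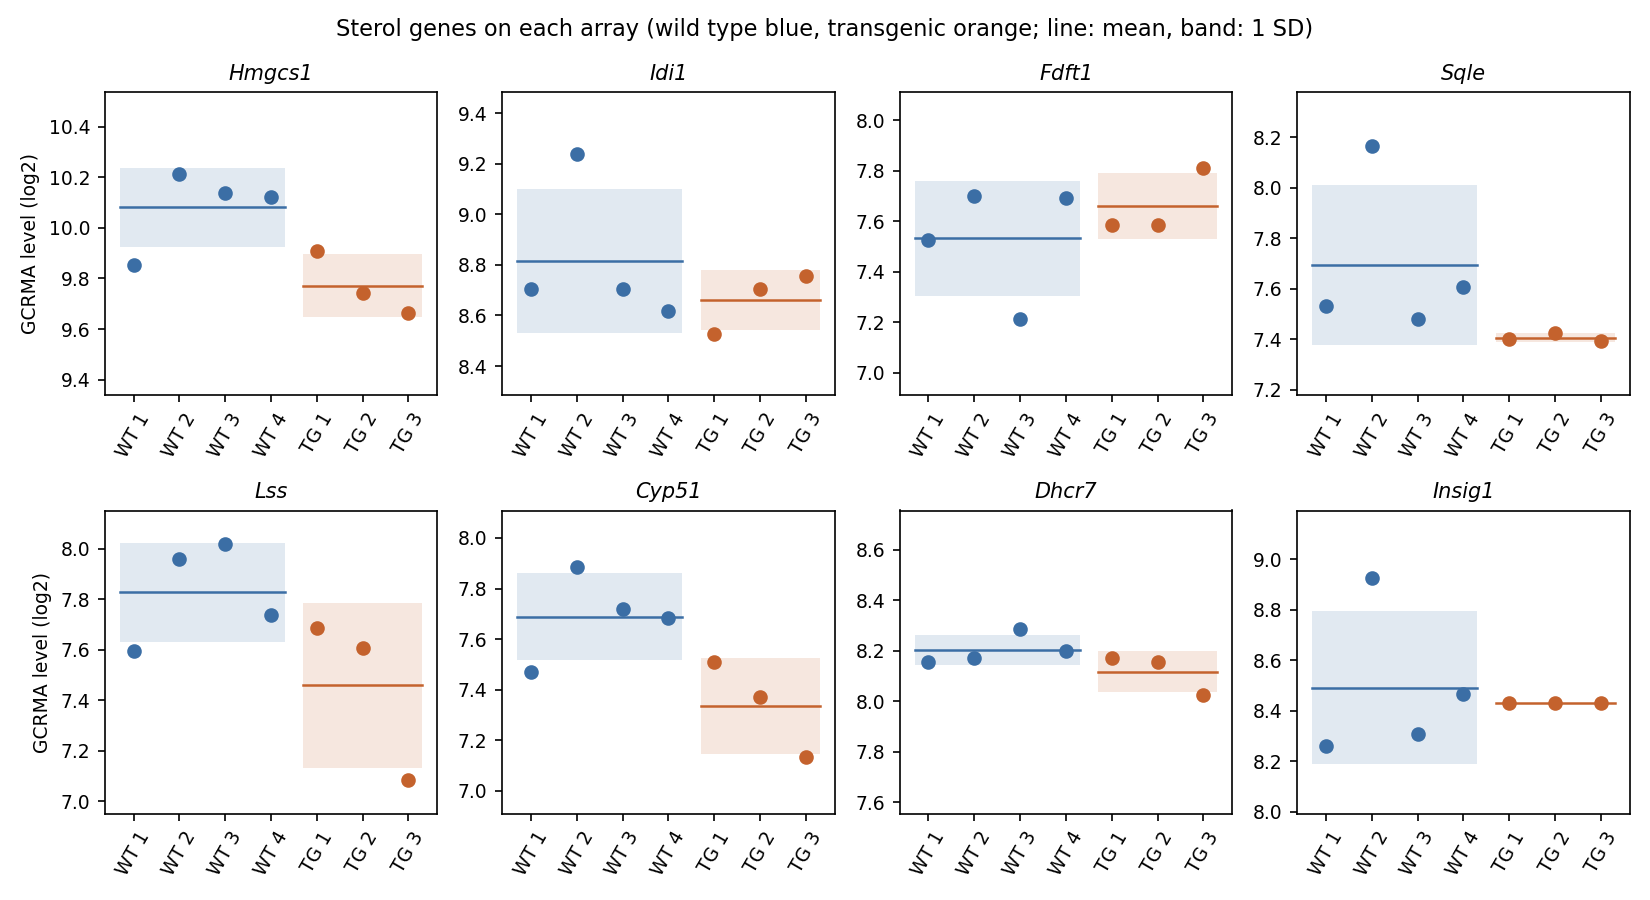
Log2 GCRMA level (vertical axis, each panel spanning 1.2 units) of the brightest probe set of each of the 8 genes on each array (horizontal axis), with wild-type arrays in blue and transgenic arrays in orange, the line at the group mean and the band at 1 SD. Wild-type replicate 2 is the highest array for 5 genes, and Sqle is the gene whose groups do not overlap.

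Hmgcs1, the first enzyme of the set, was read by 5 probe sets and gave the most even picture. Its brightest probe set, 1433445_x_at, was at 9.86, 10.21, 10.14 and 10.12 on wild-type replicates 1 to 4 and at 9.91, 9.74 and 9.66 on transgenic replicates 1 to 3. Wild-type replicate 1 lay below transgenic replicate 1, so the groups overlapped. The means were 10.08 ± 0.16 (SD, n = 4) and 9.77 ± 0.125 (SD, n = 3), a difference of -0.31 ± 0.10 (SE; 95% interval -0.56 to -0.06; limma adjusted p = 0.108). The other 4 probe sets gave -0.21 (1433443_a_at), -0.37 (1433444_at), -0.30 (1433446_at) and -0.41 (1441536_at), with limma adjusted p from 0.115 to 0.262. All 5 thus had the same sign, and they share the RNA of the same arrays and the sequence of 1 gene. Without wild-type replicate 1, 2 of them passed, 1433444_at (-0.48, limma adjusted p = 0.0358) and 1441536_at (-0.53, limma adjusted p = 0.0354).

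Idi1, which interconverts the isoprenoid building blocks, was at 8.70, 9.24, 8.70 and 8.62 in wild type and at 8.53, 8.70 and 8.75 in transgenic arrays with probe set 1451122_at. Apart from wild-type replicate 2 the arrays covered one common range. The difference was -0.15 ± 0.16 (SE; 95% interval -0.54 to 0.23; limma adjusted p = 0.536), and -0.013 without wild-type replicate 2. Its dimmer probe set, 1423804_a_at, ran from 6.85 to 7.56 in wild type and from 6.52 to 6.88 in transgenic arrays, a difference of -0.40 (limma adjusted p = 0.215).

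Fdft1, squalene synthase, was the only member with a positive difference at its brightest probe set. Levels of 1438322_x_at were 7.53, 7.70, 7.21 and 7.69 in wild type and 7.58, 7.58 and 7.81 in transgenic arrays, which overlapped. That is a difference of 0.13 ± 0.14 (SE; 95% interval -0.20 to 0.46; limma adjusted p = 0.553), with the sign turned (-0.0063) when arrays were weighted by their quality. The second tested probe set, 1448130_at, stayed between 7.24 and 7.50 on all 7 arrays and gave -0.04 (limma adjusted p = 0.762). The sign of Fdft1 thus differed between its probe sets, and its other 2 probe sets were at the lowest value of the table, 2.17, on every array.

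Sqle, which adds oxygen to squalene and is a rate-limiting step of the sterol branch, had 1 probe set. It was at 7.53, 8.16, 7.48 and 7.61 in wild type and at 7.40, 7.43 and 7.39 in transgenic arrays. Every transgenic array lay below every wild-type array, with a gap of less than 0.1 between the nearest arrays. The means were 7.70 ± 0.32 (SD, n = 4) and 7.41 ± 0.016 (SD, n = 3), and the difference was -0.29 ± 0.17 (SE; 95% interval -0.69 to 0.12; limma adjusted p = 0.292) and did not pass. Without wild-type replicate 2 it was -0.13.

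Lss, which closes the sterol ring, had the most negative difference among the brightest probe sets of the 8 genes. Its probe set 1420013_s_at was at 7.60, 7.96, 8.02 and 7.74 in wild type and at 7.69, 7.61 and 7.09 in transgenic arrays. Transgenic replicate 3 was the lowest by a wide margin, while the other 2 transgenic arrays lay above wild-type replicate 1. The difference of -0.37 ± 0.18 (SE; 95% interval -0.79 to 0.05; limma adjusted p = 0.215) was -0.18 without transgenic replicate 3. A dimmer probe set, 1426913_at, was above background on 6 of the 7 arrays and gave -0.39 (limma adjusted p = 0.444), and 1420014_at was not above background on any array.

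Cyp51, the lanosterol demethylase, was at 7.47, 7.89, 7.72 and 7.68 in wild type and at 7.51, 7.37 and 7.13 in transgenic arrays with probe set 1450646_at. As for Hmgcs1, wild-type replicate 1 reached down into the transgenic range. The means were 7.69 ± 0.17 (SD, n = 4) and 7.34 ± 0.19 (SD, n = 3), and the difference was -0.35 ± 0.13 (SE; 95% interval -0.66 to -0.05; limma adjusted p = 0.129). The dimmer 1422533_at gave -0.22 (limma adjusted p = 0.383), and 1422534_at was at 2.17 throughout.

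Dhcr7, the last reductase, had the narrowest range over all 7 arrays among the brightest probe sets of the 8 genes. Its probe set was at 8.15, 8.17, 8.29 and 8.20 in wild type and at 8.17, 8.16 and 8.02 in transgenic arrays. The groups overlapped. The difference of -0.085 ± 0.066 (SE) had a 95% interval of -0.24 to 0.07 (limma adjusted p = 0.407).

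Insig1, the sterol-regulated brake on SREBP, was at 8.26, 8.92, 8.31 and 8.47 in wild type and at 8.43 on each of the 3 transgenic arrays. The transgenic arrays lay inside the wild-type range, between replicate 3 and replicate 4. The difference was -0.06 ± 0.16 (SE; 95% interval -0.45 to 0.33; limma adjusted p = 0.822) and turned to 0.08 without wild-type replicate 2. Equal values on several arrays, here and for Idi1 and Fdft1, come with the deposited table, in which 9 of the 16 tested member probe sets, and 42.7% of all tested probe sets, had at least 2 arrays with the same value to 3 decimals.

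**Figure D2:**
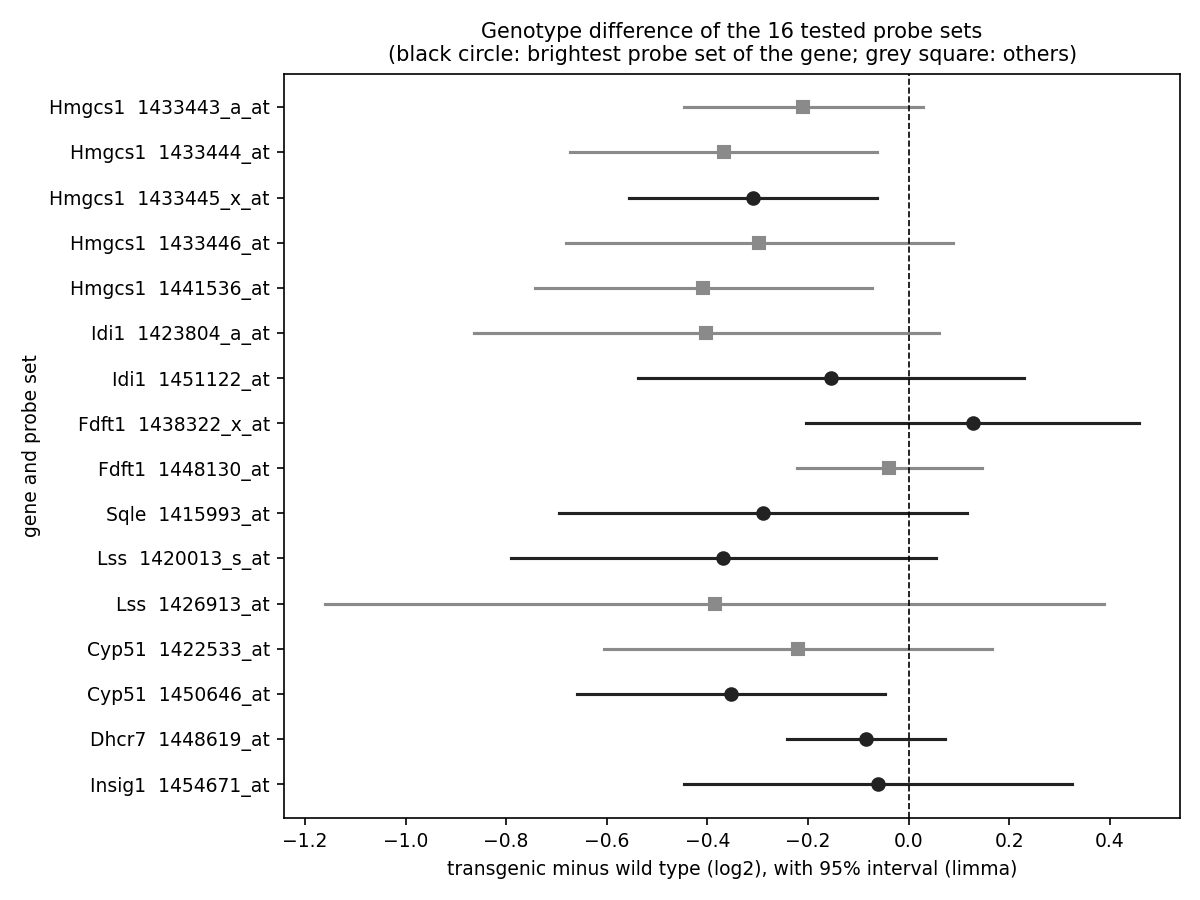
Transgenic minus wild-type difference on the log2 scale (horizontal axis) with its 95% limma interval for the 16 tested probe sets (vertical axis), the brightest of each gene in black and the others in grey. Intervals of 4 probe sets, 3 of Hmgcs1 and 1 of Cyp51, lie wholly below 0, which is the same as an unadjusted limma p under 0.05. Of all genes, 30.9% reached that level in either direction. None of the 16 passes after adjustment.

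The 8 genes also differed among the wild-type mice. The mean level over the 8 genes was 8.14, 8.53, 8.23 and 8.27 on wild-type replicates 1 to 4 and 8.15, 8.13 and 8.04 on transgenic replicates 1 to 3. Wild-type replicate 2 stood above the rest and wild-type replicate 1 lay within the transgenic range. Replicate 2 was the highest wild-type array for 6 of the 8 genes, against 15.8% of all genes, and the highest of all 7 arrays for 5 of the 8, against 7.43% of all genes. In the tested probe sets it was the highest of all arrays for 11 of 16. Replicate 1 was the lowest wild-type array for 5 of the 8, against 23.3% of all genes. The median SD between wild-type mice was 0.21 for the members and 0.11 for all genes, while that between transgenic mice was 0.12 and 0.14. Replicates 1 and 2 both had the high Xist level named above. Among the transgenic arrays, replicate 3 was the lowest for 5 of the 8 genes, against 49.2% of all genes; it also had the highest mean of the T cell, natural killer cell, macrophage, erythroid, progenitor and cell cycle lists and the lowest of the mature B cell list, whose part in these levels was not tested.

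The members were compared with each other after the mean of its genotype was taken from each array, which leaves 5 free values over the 7 arrays and removes the genotype difference. Pearson's r was positive for 21 of the 28 pairs, with a median of 0.51, and was above 0.8 for 6 pairs. Sqle and Insig1 were most alike (r = 0.98), followed by Hmgcs1 and Cyp51 (0.94), Idi1 and Sqle (0.90) and Lss and Cyp51 (0.89). Fdft1 and Dhcr7 were most unlike (r = -0.80). These points share arrays and normalization, and the likeness rested on 1 array: without wild-type replicate 2 the median over pairs was 0.03 and 16 of 28 were positive, whereas leaving out any other single array gave medians from 0.39 to 0.57.

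Among 9171 other genes above 4 on all arrays, the 5 whose departures from their genotype means were most like the mean departure of the members were Ndufa1 (Pearson's r = 0.99 over 7 arrays), Lrrc57 (0.97), Rnaseh1 (0.97), Msmo1 (0.97) and Ccnc (0.97). The median over all these other genes was 0.01. The members themselves ran from 0.94 for Insig1 and 0.92 for Sqle to 0.30 for Fdft1 and 0.10 for Dhcr7. Each member is part of the mean it was compared with, which tends to raise its r, so these values are not comparable with those of other genes. The other 11 enzymes of cholesterol synthesis covered a wide range: Msmo1, the sterol methyl oxidase that acts after Cyp51, and Mvk, mevalonate kinase (0.95, ranked 9th), were at its top. Mvd (0.59), Pmvk (0.58), Hsd17b7 (0.54) and Sc5d (0.52) lay between. Fdps (0.28), Lbr (0.05), Tm7sf2 (-0.11), Nsdhl (-0.18) and Ebp (-0.43) were lowest. Msmo1 was at 8.36, 8.94, 8.37 and 8.54 in wild type and at 8.44, 8.48 and 8.27 in transgenic arrays, and Mvk was at 5.42, 6.11, 5.60 and 5.54 and at 5.54, 5.54 and 5.51. Both were highest on wild-type replicate 2, like 5 of the 8 members. The sterol transfer gene Stard4 ranked 69th (0.86) and Srebf2 79th (0.85), while Scap had an r of -0.27 and Cyp27a1 one of -0.92.

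**Figure D3:**
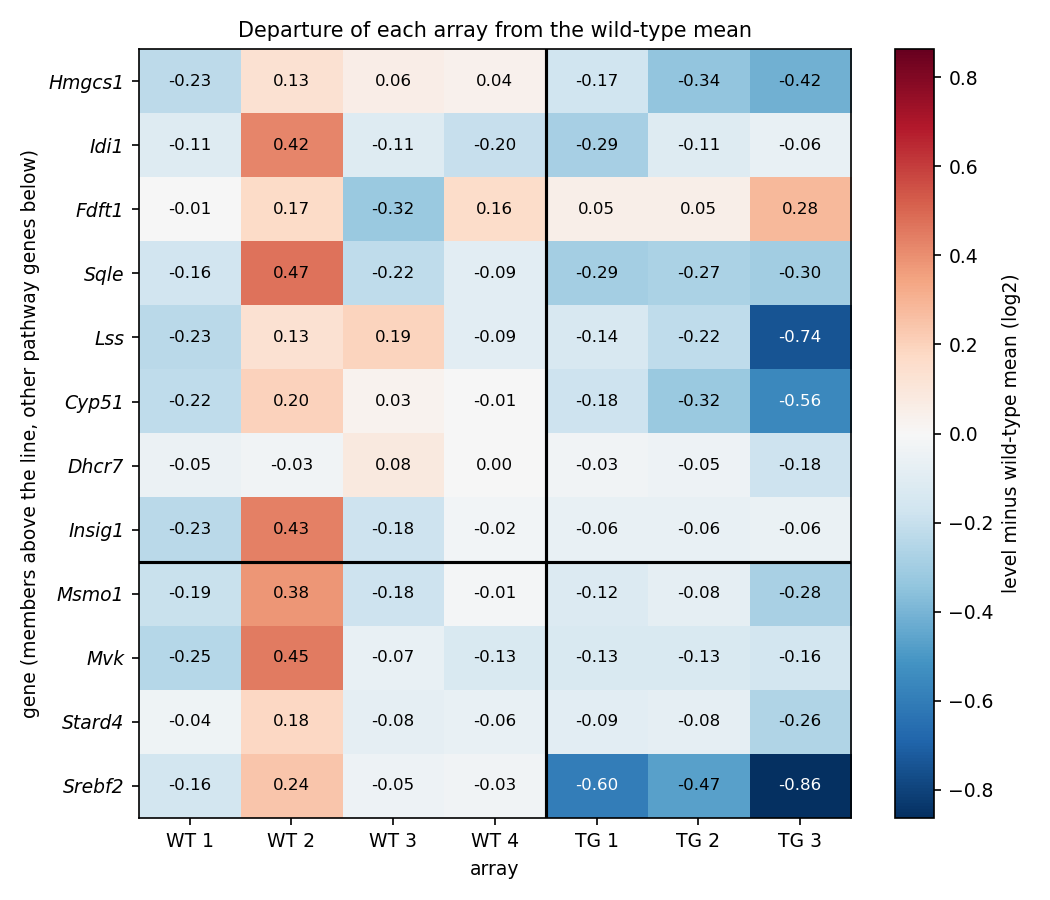
Level minus the wild-type mean on the log2 scale (colour and printed values) for the 8 genes and, below the line, Msmo1, Mvk, Stard4 and Srebf2 (rows) on each array (columns). Wild-type replicate 2 is positive for 7 of the 8 members and for all 4 others, and Srebf2 is negative on all 3 transgenic arrays.

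Of the genes that sense sterols and activate SREBP, Srebf2 itself was lower in the transgenic arrays. Its brightest probe set, 1426744_at, was at 10.24, 10.63, 10.35 and 10.37 in wild type and at 9.80, 9.93 and 9.54 in transgenic arrays. No transgenic array reached the lowest wild-type array. Srebf2 averaged 10.40 ± 0.17 (SD, n = 4) against 9.76 ± 0.20 (SD, n = 3) with the transgene. This difference of -0.64 ± 0.13 (SE; 95% interval -0.94 to -0.34; limma adjusted p = 0.0323) is 0.641-fold. The second probe set, 1452174_at, gave -0.55 without overlap and did not pass (limma adjusted p = 0.0693). The call was lost when any 1 of the 7 arrays was left out, with changes from -0.73 to -0.53 and limma adjusted p from 0.0528 to 0.0789, and over all 18 alternatives that adjusted p ran from 0.00924 to 0.173. Erlin1, a subunit of the complex that marks sterol-regulated proteins for degradation, rose by 0.51 ± 0.12 (SE; limma adjusted p = 0.0476), which held without wild-type replicate 3 but not without any other single array; its dimmer probe set gave -0.10. Of the 10 tested genes in this list 1 was higher, 1 lower and 8 did not pass, with a median of 0.08. Srebf1, which encodes the SREBP-1 factors, stood at 9.69 ± 0.14 (SD, n = 4) and 9.78 ± 0.10 (SD, n = 3; difference 0.09, limma adjusted p = 0.546). Scap gave 0.16 (limma adjusted p = 0.303) and Insig2 0.0085 (limma adjusted p = 0.963) at their brightest probe sets. A dimmer Scap probe set, 1442885_at, had the opposite sign, -0.28 (limma adjusted p = 0.474). For Insig2, 1417980_a_at gave -0.13 (limma adjusted p = 0.364) and 1417982_at gave 0.01 (limma adjusted p = 0.973).

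None of the other enzymes of cholesterol synthesis passed. Of 11 tested, 3 had an unadjusted limma p under 0.05, against 30.9% of all genes. After adjustment 0 were called, and the median of the 11 was -0.02. The nearest to the threshold were positive: Ebp, the sterol isomerase, at 9.84, 9.82, 10.03 and 9.91 in wild type and 10.12, 10.17 and 10.21 in transgenic arrays (0.27 ± 0.07 SE, limma adjusted p = 0.0547), and Fdps, farnesyl diphosphate synthase, at 8.36, 8.61, 8.34 and 8.34 against 8.68, 8.82 and 9.12 (0.46 ± 0.12 SE, limma adjusted p = 0.0653). In both, every transgenic array lay above every wild-type array, the opposite direction to Hmgcs1 and Cyp51. In the isoprenoid branch, which feeds protein prenylation, 0 of 10 genes passed by limma, with a median of 0.01. Of these 10, 2 had an unadjusted limma p under 0.05, against the same 30.9% of all genes. Ggps1, geranylgeranyl diphosphate synthase, gave -0.16 (limma adjusted p = 0.161) and Fntb, the farnesyltransferase beta subunit, 0.65 (limma adjusted p = 0.0560). In wild type Fntb was at 5.58 on both female replicates, 1 and 2, and at 5.09 on both male replicates, 3 and 4. The values are exactly equal within each pair, as for other probe sets of the deposited values. They therefore give no spread within a sex against which this split could be judged. Without the male arrays its difference was 0.41 (limma adjusted p = 0.172).

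Among genes of lipoprotein uptake and sterol transport, Scarb1 was higher in the transgenic arrays. Scarb1 encodes SR-B1, a receptor that takes up cholesterol esters from high-density lipoprotein, and was at 6.57, 6.34, 6.49 and 6.61 in wild type and at 7.24, 7.84 and 8.42 in transgenic arrays. The groups were well apart, with the highest level on transgenic replicate 3. It rose by 1.33 ± 0.26 (SE; limma adjusted p = 0.0320), or 2.51-fold, and its other 2 probe sets also passed (1.56 and 1.37, limma adjusted p = 0.0404 and 0.0427). The call held without transgenic replicate 1 or 3 and was lost without any other single array. Of 7 tested genes 1 was higher, 0 lower and 6 did not pass, with a median of 0.08; Vldlr, Lrp8 and Lrp1 were below the filter. The 8 macrophage and monocyte genes averaged 3.89, 4.12, 4.62 and 5.26 on wild-type replicates 1 to 4 and 5.28, 5.69 and 7.21 on transgenic replicates 1 to 3, with C1qa, C1qb, Vcam1 and Cd14 below the filter. Their part in the rise of Scarb1 was not tested.

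Among the 51 tested genes of the 6 further pathway lists, Cyp27a1 had the most negative difference and Hsd3b7 the most positive. Hsd3b7 was above 4 on 2 wild-type arrays, so it met the filter of 3 arrays only through the transgenic group. Its rank and its call thus depended on a filter met through the group where it is high. Cyp27a1, a mitochondrial sterol hydroxylase that makes an oxysterol, was at 9.18, 8.74, 9.24 and 9.04 in wild type and at 7.96, 7.96 and 8.22 in transgenic arrays. Cyp27a1 fell by 1.00 on the log2 scale (SE 0.14; limma adjusted p = 0.0163), to 0.500-fold, without overlap, and lost its call without transgenic replicate 2 (limma adjusted p = 0.0753) among the single arrays. Hsd3b7, a steroid dehydrogenase of bile acid synthesis, was at 4.05, 3.77, 4.34 and 3.54 in wild type, above background on 2 of the 4 arrays, and at 5.14, 6.02 and 7.13 in transgenic arrays. It rose by 2.17 ± 0.46 (SE; limma adjusted p = 0.0372), a size that is not exact because of the background values, and its call held without transgenic replicate 1 or 3 and was lost without any other single array. Of 5 tested genes of efflux, storage and oxysterol response 1 was higher and 1 lower; Abca1 and Abcg1, the sterol exporters, gave -0.32 (limma adjusted p = 0.143) and 0.28 (limma adjusted p = 0.274). The lists of other cells and of the cell cycle above were also higher in the transgenic arrays. From transgenic replicate 1 to 3, Hsd3b7 rose in the same order as the macrophage and monocyte mean (5.28, 5.69 and 7.21). The natural killer cell, erythroid, blood progenitor, T cell and cell cycle means had that order too, and the granulocyte mean did not (8.81, 7.57 and 8.35). In wild type Hsd3b7 was too near background for its order among arrays to be read. The part of these lists in the rise of Hsd3b7 was not tested.

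Of 8 tested fatty acid genes that SREBP also drives, 1 was lower and 0 higher, with a median of 0.12. Acsl3, which activates fatty acids, was at 6.41, 6.65, 6.51 and 6.71 in wild type and at 6.17, 5.89 and 5.85 in transgenic arrays, and fell by 0.60 on the log2 scale (SE 0.11; limma adjusted p = 0.0293); this call held without wild-type replicate 1 or transgenic replicate 1 and was lost without any other single array. Fasn, fatty acid synthase, gave 0.18 (limma adjusted p = 0.193) and Acly, ATP citrate lyase, -0.08 (limma adjusted p = 0.587). In all, 6 of the 51 tested genes in the 6 further lists passed, which is 11.8% against the 10.7% of all genes given above. Hsd3b7 is among the 6 and met the filter only through the transgenic arrays.

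**Figure D4:**
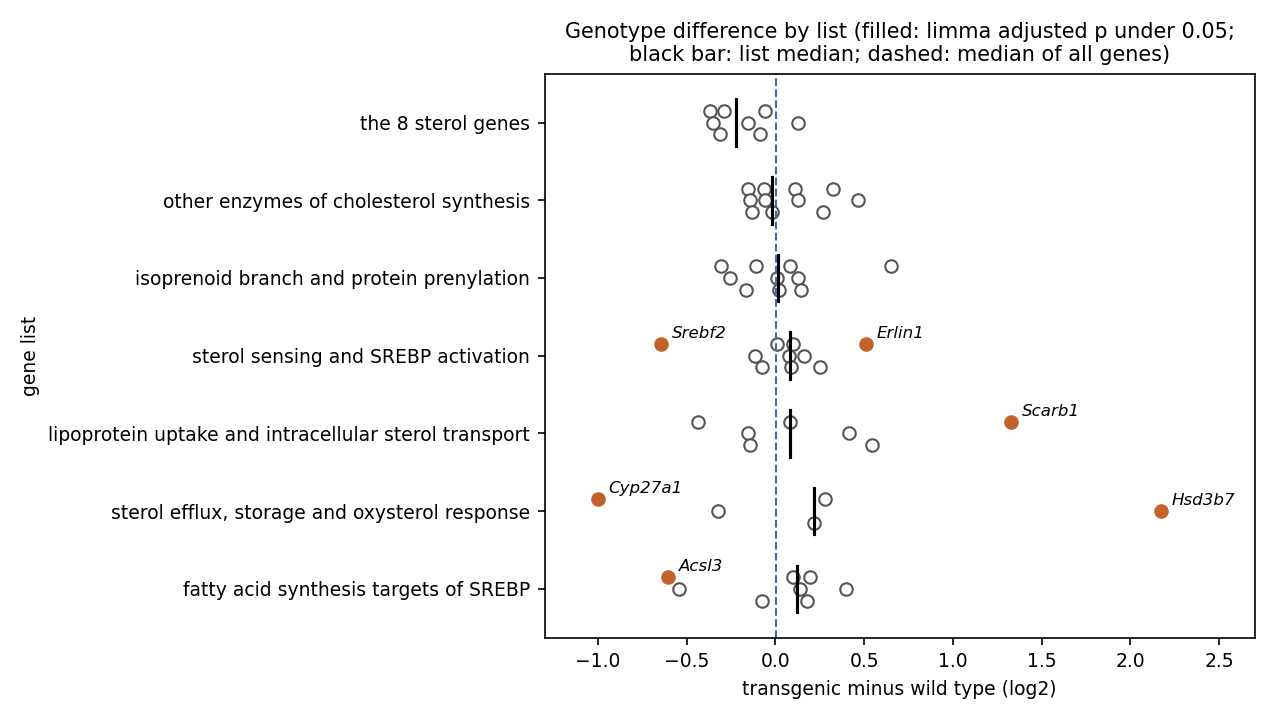
Transgenic minus wild-type difference on the log2 scale (horizontal axis) of every tested gene in the sterol set and 6 further lists (vertical axis), filled where the limma adjusted p is under 0.05, with each list's median as a black bar and the median of all genes dashed. The 8 sterol genes have a median of -0.22 and no filled point, and the filled points are Srebf2, Erlin1, Scarb1, Cyp27a1, Hsd3b7 and Acsl3.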

How the data were processed

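The deposited values are log2 levels made by the authors with GCRMA, as named per the submitters' processing notes (version not given in the sources used here). The log2 scale was read from the range of values. GCRMA models nonspecific binding from probe sequence and brings arrays to one distribution, so dim genes pile up at shared low values. Scanner files and scan dates were not used here, so no batch was tested. Control probe sets were left out and 45037 remained; the table held 0 other value columns. Symbols came from the platform annotation, with Entrez identifiers looked up in RefSeq (GRCm38.p6), which changed 0. Probe sets above 4 on at least 3 arrays (20994; 9517 genes, each by its probe set of highest mean) were fitted with limma 3.58.1 in R 4.3.3 (lmFit, eBayes with an intensity trend; prior degrees of freedom 1.68) and adjusted over all of them. The fit was first tested on simulated data. The groups were 4 wild-type and 3 transgenic arrays. The members, lists and the rule for named genes (all members; of each further list those that passed, or the 2 with the smallest p; the main SREBP regulators; the 5 most alike genes) were chosen with earlier results of these data known. Abca1, Abcg1, Fasn, Acly, Mvk and Stard4 fall outside that rule and were chosen after their values were seen. Alternatives changed the filter, scaling, variance model, weights, probe choice, threshold and arrays.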

Additional observations from a re-analysis of the deposited data

Results flagged for a closer look

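Idi1 (probe set 1451122_at) was at 9.24 on wild-type replicate 2, far above the other 3 wild-type arrays for the range they cover, by Dixon's test at its 95% level. Chance marks about 5% of groups in this way, and 1 of the 16 tested member probe sets was marked.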

How the results depend on the processing

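Over 18 settings refitted across the whole table, the 29 differences of member probe sets and further named genes kept their direction in 509 of 518 cases. Settings that changed only the filter or the variance model leave each difference as it was. Part of this count was therefore fixed in advance. The count of members called was 0 in all settings but 1, array weights, where it was 2 (Hmgcs1, adjusted p = 0.0215, and Cyp51, 0.0353); the weights had not converged, and that fit called 2763 genes in all. The count over the further lists, 6, became 16 with array weights, 12 at an adjusted p under 0.1, and 0 with no filter, with the replicate block, without both male wild-type arrays and without the pair of transgenic replicate 3 and wild-type replicate 4, and lay between 0 and 5 when 1 array was left out. These last fits use fewer arrays, and the no-filter fit adjusts over more probe sets. Differences that turned sign were Fdft1 1438322_x_at with array weights (-0.0063), Fdft1 1448130_at with the block (0.015), without both male arrays (0.026), without the pair of transgenic replicate 3 and wild-type replicate 4 (0.012) and over single arrays left out (-0.071 to 0.015), Insig1 (-0.14 to 0.084) and Insig2 (-0.065 to 0.091) over single arrays; the cause was not tested. The labels describe no pairing by replicate number. Departures of same-numbered arrays correlated at -0.04, -0.14 and -0.29, and those of differently numbered arrays at -0.17 to 0.26. Departures sum to 0 within each group, which constrains these values, so they cannot decide whether arrays were paired. With the replicate block the members' median was -0.26 and 3 of 9517 genes passed.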
